A study of Mus musculus with 7 samples.

Results

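The genes described here are enzymes and regulators of gluconeogenesis, the route by which the liver makes glucose: Pck1, Pck2, G6pc, Slc37a4, Fbp1, Pcx, Tat, Sds, Ppargc1a and Foxo1. They were taken up through every probe set whose platform annotation gives a member as its only gene symbol. That found 23 probe sets for 9 of the 10 members, out of 18194 genes so named on the array, and Sds was not analysed here. Liver messenger RNA was measured on Affymetrix Mouse Genome 430 2.0 arrays in male C57BL/6J pups on day of life 1, with 1 array per liver. The 3 wild type arrays come from littermates of glycerol kinase knockout mice, and the 4 knockout arrays from glycerol kinase knockout mice of the same strain, sex and age. No treatment is named for either group. Glycerol kinase phosphorylates glycerol, so that glycerol can enter gluconeogenesis. The series' design text describes knockout pups of this age as showing no outward signs of the deficiency yet, and asks what differs in the liver before they appear. The transcript of the deleted gene is not reported here, so the labels were not checked by it.

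Around birth a mouse loses the placental supply of glucose and turns on gluconeogenesis in the liver. Pyruvate carboxylase (Pcx) and the phosphoenolpyruvate carboxykinases (Pck1 in the cytosol, Pck2 in mitochondria) bypass pyruvate kinase, fructose bisphosphatase (Fbp1) bypasses phosphofructokinase, and glucose 6-phosphatase (G6pc), fed by the transporter Slc37a4, releases free glucose. Tat and Sds break down amino acids that supply carbon. Glucagon, through cAMP, raises the coactivator PGC-1 alpha (gene Ppargc1a), while insulin keeps the forkhead factor FOXO1 out of the nucleus; both proteins are known to act on Pck1 and G6pc.

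Promoter sequences are printed for Pck1, G6pc and Ppargc1a, because cAMP, forkhead and nuclear receptor signals are known to reach this pathway through them. Each is the 250 bases before a RefSeq start of the gene in assembly GRCm38.p6, written 5′ to 3′ on the strand of the gene. Capitals mark a match to a searched motif on either strand. The windows lie at chr2:173152823-173153072 (plus strand) for Pck1, chr11:101367466-101367715 (plus strand) for G6pc and chr5:51567726-51567975 (minus strand) for Ppargc1a. The Ppargc1a window lies inside the RefSeq span of its gene, 51454249 to 52115853, and the bases before the upstream end of that span were not searched.
Pck1: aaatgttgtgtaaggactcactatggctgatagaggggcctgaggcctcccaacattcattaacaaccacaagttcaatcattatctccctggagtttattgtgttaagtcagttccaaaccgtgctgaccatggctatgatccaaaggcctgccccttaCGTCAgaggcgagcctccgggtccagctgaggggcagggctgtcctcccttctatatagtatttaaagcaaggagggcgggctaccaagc
G6pc: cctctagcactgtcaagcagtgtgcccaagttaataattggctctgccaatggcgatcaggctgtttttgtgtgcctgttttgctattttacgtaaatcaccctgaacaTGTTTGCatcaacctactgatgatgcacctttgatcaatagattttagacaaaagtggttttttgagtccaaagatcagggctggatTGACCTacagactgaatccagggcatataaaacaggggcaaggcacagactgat
Ppargc1a: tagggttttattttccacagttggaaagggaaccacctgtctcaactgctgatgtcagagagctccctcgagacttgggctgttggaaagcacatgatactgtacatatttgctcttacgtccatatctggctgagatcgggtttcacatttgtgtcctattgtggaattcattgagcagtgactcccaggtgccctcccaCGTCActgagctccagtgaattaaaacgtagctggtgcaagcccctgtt
In Pck1 the capitals are CGTCA, the reverse complement of TGACG, the core of a cAMP response element, at bases 90 to 86 before the start. Ppargc1a has CGTCA at bases 49 to 45 before the start used here. G6pc has TGTTTGC, a forkhead motif, at bases 141 to 135 before the start, and TGACCT, the reverse complement of the nuclear receptor motif AGGTCA, at bases 54 to 49.

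Both strands were searched in 12 windows of the 9 measured members. Members are counted by gene, and Slc37a4 and Pcx have several windows, whereas the shares given beside them count windows. The Tat window, a Pcx window and a Slc37a4 window, like that of Ppargc1a, lie inside the RefSeq span of their gene. Another Slc37a4 window and those of Pck2 and Fbp1 reach into the span in part. TGACG was present for 3 members (Pck1, Slc37a4 and Ppargc1a) and in 17.8% of 32851 windows of this length in the table. AGGTCA was present for G6pc and Slc37a4, and in 14% of all windows. TGTTTGC was present for G6pc, and in 4.3% of all windows. The full palindrome TGACGTCA, which contains TGACG, was in 0 member windows and in 1.55% of all windows. The forkhead motif TGTTTAC, in 3.17% of all windows, and the glucocorticoid receptor motif TGTTCT, in 16.1%, also had 0 matches in members. These matches describe letters in a short window and not the binding of a factor.

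The deposited values are linear intensities, with array medians from 92.7 to 108.3. Arrays correlated with each other at 0.926 to 0.985 over the 22518 probe sets that were tested, and none was a copy of another. Each probe set with a mean intensity above the median was tested between knockout and wild type with limma on log2(intensity + 16), where + 16 is an offset that damps noise of dim probe sets. A gene is said to have risen or fallen only at a Benjamini-Hochberg adjusted p under 0.05 over all 22518 probe sets tested. Of these, 941 passed (4.18%), with 520 higher in the knockout (2.31%) and 421 lower (1.87%). The calls were 55.3% higher, and 71.0% of 748 calls were higher when arrays were set to equal medians. Without wild type 3, the library whose removal cost most calls, 141 probe sets passed. Of 14 hepatocyte markers measured, 0 passed the test, and their summed intensity ran from 363998 to 414269 in wild type and from 355733 to 451166 in knockout livers. In bulk liver, fewer cells of a type and less RNA per cell cannot be told apart.

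None of the 9 measured gluconeogenesis genes passed the test. Of 17 member probe sets tested, 0 reached a limma adjusted p under 0.05, against 4.18% of all tested, and their adjusted p ran from 0.104 to 0.992. At an unadjusted p under 0.05 there were 4, in Pck1, Ppargc1a (2 probe sets) and Foxo1, beside 21.8% of all tested. Exact two-sided permutation tests over the samples gave 0 member probe sets under 0.05. Of the 17, 13 were lower and 4 higher in the knockout, and the median difference was -0.33 on the log2 scale, beside -0.03 over all probe sets tested. With only the brightest probe set per gene the median was again -0.33 over 9 genes, and -0.0009 over 11173 genes. Knockout and wild type values did not overlap in 2 member probe sets, both lower in the knockout, beside 11.8% of all tested, and in 0 higher, beside 9.44%. The shares of members past the unadjusted threshold and lower without overlap are thus close to those of all probe sets.

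**Figure D1:**
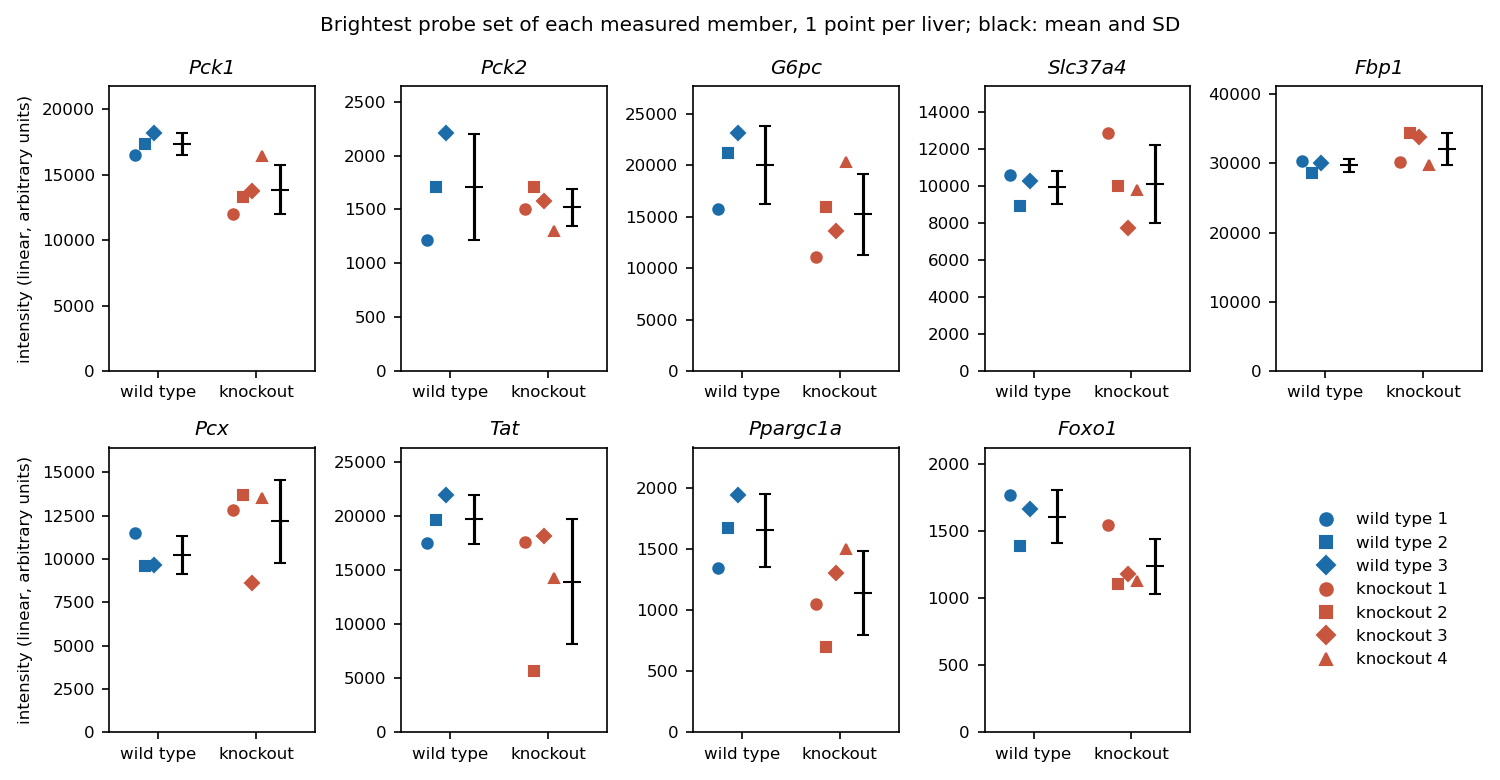
Intensity (linear, arbitrary units, axes from 0) of the brightest probe set of each measured member, 1 point per liver, with the mean and SD of 3 wild type and 4 knockout livers in black. All 4 knockout livers lie below all 3 wild type livers for Pck1, knockout 2 stands low for Tat at 5693, and knockout 3 stands low for Pcx at 8628.

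Pck1, the cytosolic carboxykinase, did not pass the test, and its 2 tested probe sets differed in whether the groups overlapped. The brightest probe set (1423439_at) read 16503, 17353 and 18157 in wild type livers 1 to 3, and 11965, 13308, 13765 and 16399 in knockout livers 1 to 4. The groups did not overlap, although knockout 4 came close to wild type 1. The means were 17338 ± 827 (SD, n = 3) and 13859 ± 1858 (SD, n = 4), a log2 difference of -0.33 ± 0.11 (SE; 95% interval -0.59 to -0.08; limma adjusted p = 0.129). An exact two-sided permutation test gave p = 0.0571, where the smallest p that 3 against 4 livers allow is 0.0286.

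The second Pck1 probe set, which can share probes with other transcripts (1439617_s_at), read 8681, 10702 and 10988 in wild type and 6624, 7775, 7661 and 11402 in knockout livers. Here the groups overlapped, since knockout 4 was the highest of all 7. On the log2 scale it differed by -0.30 ± 0.18 (SE; limma adjusted p = 0.36). Probe set 1455209_at, also named for Pck1, lay between 6.1 and 23.8 in all livers, under the filter, and was not tested. Averaged over the 2 tested probe sets, Pck1 differed by -0.31 (exact permutation p = 0.143).

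Pck2, the mitochondrial carboxykinase, showed no separation of the groups. Its brightest probe set (1425615_a_at) read 1219, 1707 and 2206 in wild type and 1502, 1704, 1578 and 1299 in knockout livers, so that the knockout values lie within the wild type range. The log2 difference was -0.13 ± 0.20 (SE; 95% interval -0.58 to 0.31; limma adjusted p = 0.746). Its sign depends on wild type 3: without that liver it was 0.07. The dim probe set 1452620_at ran from 112 to 201 in wild type and from 76.6 to 162 in knockout livers, with a difference of -0.39 ± 0.27 (limma adjusted p = 0.44).

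Whether the cytosolic and the mitochondrial enzyme changed unequally was asked within each array, as log2 Pck1 minus log2 Pck2 on the brightest probe sets. The wild type values were 3.74, 3.33 and 3.03, and the knockout values 2.98, 2.95, 3.11 and 3.64. The groups overlapped, with wild type 1 and knockout 4 highest. The difference was -0.20 (exact two-sided permutation p = 0.457; adjusted over 2 such comparisons, 0.457). It changed sign, to 0.09 (exact permutation p = 0.743), when all probe sets of each gene were averaged. That average includes the Pck1 probe set 1455209_at, which lay under the filter. Over the tested probe sets only, the mean differences were -0.31 for Pck1 and -0.26 for Pck2. The within-array comparisons are differences in change and not a ratio of the amounts of both transcripts, since probe sets differ in brightness.

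Pyruvate carboxylase, which makes oxaloacetate for the Pck step, was higher in 3 of 4 knockout livers. Its regular probe set (Pcx, 1416383_a_at) read 11493, 9569 and 9643 in wild type and 12849.5, 13689, 8628 and 13506 in knockout livers. Knockout livers 1, 2 and 4 were above all wild type livers and knockout 3 was below all of them. The means were 10235 ± 1090.2 (SD, n = 3) and 12168 ± 2387 (SD, n = 4), with a log2 difference of 0.23 ± 0.16 (SE; 95% interval -0.14 to 0.60; limma adjusted p = 0.451).

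The array also carries Pcx as 4 control probe sets placed from the 5′ to the 3′ end of its transcript, which the maker uses to judge labelling and which stayed out of the fit. The 3′ control read 6951, 5223 and 5433 in wild type and 7758, 8856, 5941 and 8482 in knockout livers. The 5′ control read 1286, 817 and 981 in wild type and 1698, 2560.1, 816 and 1752 in knockout livers. In all 5 Pcx probe sets knockout livers 1, 2 and 4 lay above every wild type liver, and knockout 3 did not. Mean log2 differences of the controls were 0.40 (3′), 0.53 and 0.57 (the middle pair) and 0.64 (5′), with exact two-sided permutation p of 0.114, 0.114, 0.2 and 0.2. Leaving out each liver in turn for all 5 probe sets was chosen after seeing the data. Without knockout 3 the groups did not overlap in any of them, which follows from the order of the livers given above. The differences were then 0.39 for the regular probe set and 0.52, 0.72, 0.89 and 0.95 for the controls. The exact two-sided permutation p was 0.1 for each, the smallest that the remaining livers allow. That p is fixed by the lack of overlap, and the 5 probe sets share their RNA, so they give no separate support.

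The ratio of the 3′ to the 5′ control of Pcx, a measure of how far labelled copies reach from the 3′ end, was 5.40, 6.39 and 5.54 in wild type and 4.57, 3.46, 7.28 and 4.84 in knockout livers. Knockout 3, low for Pcx, had the highest ratio of all 7 arrays, and the other 3 knockout arrays had the lowest ratios. The groups overlapped because of knockout 3 (exact permutation p = 0.4). The part of labelling or RNA quality in the Pcx values was not tested.

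**Figure D2:**
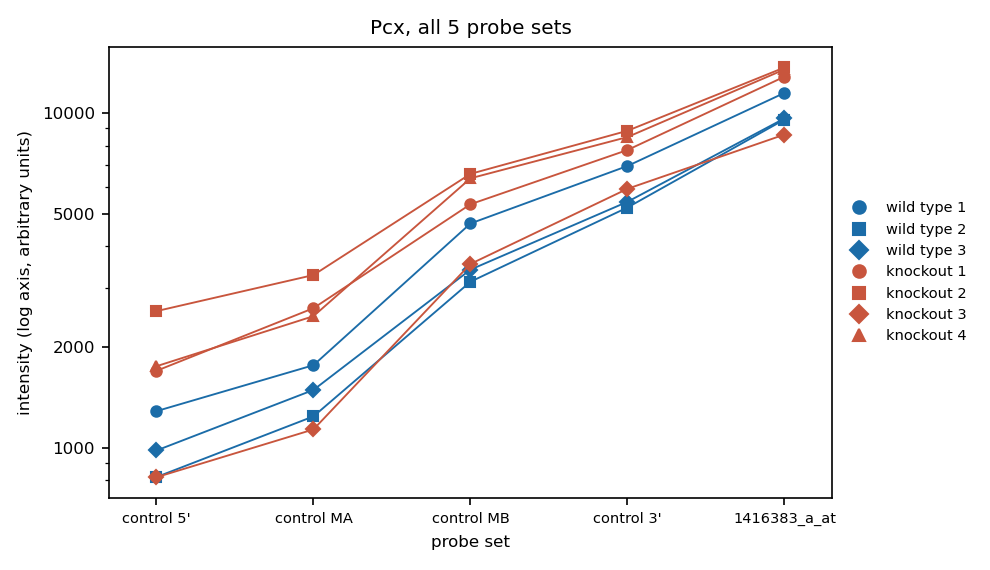
Intensity (log axis, arbitrary units) of the 5 Pcx probe sets, 4 array controls ordered from the 5′ end and the regular probe set, with 1 line per liver. The lines of knockout livers 1, 2 and 4 lie above all wild type lines at each probe set, while knockout 3 lies among or below the wild type.

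Fbp1, the bisphosphatase that bypasses phosphofructokinase, differed little between livers. It read 30377, 28588 and 30111 in wild type and 30250.4, 34309.6, 33834 and 29782 in knockout livers (1448470_at). Knockout livers 2 and 3 were highest, and knockout 1 and 4 lay within the wild type range. The means were 29692 ± 965 (SD, n = 3) and 32044 ± 2357 (SD, n = 4), with a log2 difference of 0.11 ± 0.08 (SE; 95% interval -0.08 to 0.29; limma adjusted p = 0.49). The interval is the narrowest among the 17 member probe sets tested.

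The glucose 6-phosphatase pair of genes makes the last step, with Slc37a4 carrying glucose 6-phosphate into the endoplasmic reticulum and G6pc cutting off the phosphate. G6pc (1417880_at) read 15765, 21239 and 23113 in wild type and 11065, 15967, 13656 and 20368 in knockout livers. Knockout livers 1 and 3 lay below every wild type liver, and knockout 2 and 4 lay between the lowest and the highest wild type liver. The means were 20039 ± 3818 (SD, n = 3) and 15264 ± 3948 (SD, n = 4), a log2 difference of -0.41 ± 0.20 (SE; 95% interval -0.85 to 0.03; limma adjusted p = 0.265).

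Slc37a4 (1417042_at) read 10614, 8933 and 10282 in wild type and 12861, 10043, 7724 and 9789 in knockout livers. Knockout 1 was the highest and knockout 3 the lowest of all 7. The log2 difference was 0.0037 ± 0.16 (SE; 95% interval -0.35 to 0.36; limma adjusted p = 0.992), and its sign changed with the liver left out. Within arrays, log2 G6pc minus log2 Slc37a4 was 0.57, 1.25 and 1.17 in wild type and -0.22, 0.67, 0.82 and 1.06 in knockout livers. The groups overlapped, with knockout 1 lowest, and the difference of -0.41 did not pass an exact two-sided permutation test (p = 0.343; adjusted over 2 comparisons, 0.457).

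Tat, the tyrosine aminotransferase that glucocorticoids and glucagon induce at birth, varied widely between knockout livers. It read 17479.8, 19633 and 21938 in wild type and 17551, 5693, 18186 and 14307 in knockout livers (1451557_at). Knockout 2 was far below the other 6 livers, while knockout 1 and 3 lay within the wild type range. The means were 19684 ± 2229.5 (SD, n = 3) and 13934 ± 5751 (SD, n = 4), a log2 difference of -0.63 ± 0.34 (SE; 95% interval -1.38 to 0.13; limma adjusted p = 0.317). Without knockout 2 the difference was -0.24.

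Among the regulators, the 5 probe sets of Ppargc1a all had negative differences, and none passed the test. The coactivator's probe set with the smallest p (1437751_at) read 1051, 946 and 1242 in wild type and 646, 417, 784 and 805 in knockout livers. The groups did not overlap, and knockout 2 was lowest. The means were 1079.7 ± 149.8 (SD, n = 3) and 663 ± 179 (SD, n = 4), a log2 difference of -0.73 ± 0.23 (SE; 95% interval -1.23 to -0.22; limma adjusted p = 0.104; exact permutation p = 0.0571).

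The brightest Ppargc1a probe set (1456395_at) read 1343, 1673 and 1941 in wild type and 1052, 699.8, 1303 and 1501 in knockout livers. Knockout 4 lay above wild type 1, so the groups overlapped. Its log2 difference was -0.57 ± 0.25 (SE; limma adjusted p = 0.217). Probe set 1434099_at read 432, 704 and 925 in wild type and 453, 185, 564 and 396 in knockout livers, with a difference of -0.79 ± 0.36 (SE; limma adjusted p = 0.231).

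The remaining Ppargc1a probe sets, 1434100_x_at and 1460336_at, differed by -0.38 (limma adjusted p = 0.502) and -0.27 (limma adjusted p = 0.63). Wild type 1 was the lowest wild type liver in 4 of the 5 probe sets, and knockout 2 was the lowest of all livers in 4 of the 5. The difference at 1460336_at changed sign, to 0.05, without wild type 3. Averaged over the 5 probe sets Ppargc1a differed by -0.55 (exact permutation p = 0.171). With arrays weighted by their quality in limma, 1437751_at and 1434099_at passed, at adjusted p of 0.048 and 0.0461; over all alternatives their p ran from 0.048 to 0.324 and from 0.0461 to 0.55.

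**Figure D3:**
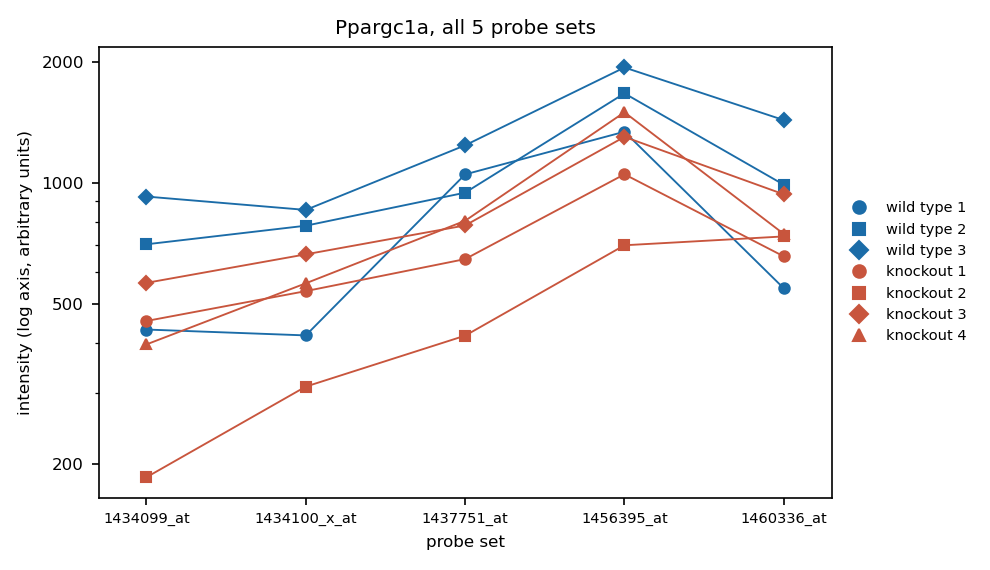
Intensity (log axis, arbitrary units) of the 5 Ppargc1a probe sets, with 1 line per liver. Knockout 2 is the lowest line at 4 probe sets, wild type 3 the highest at each, and at 1437751_at every knockout liver lies below every wild type liver.

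The 3 tested probe sets of Foxo1, the forkhead factor that insulin restrains, disagreed with each other. The brightest (1416983_s_at) read 1772, 1391 and 1671 in wild type and 1546, 1108, 1183 and 1128 in knockout livers. Knockout livers 2, 3 and 4 were below all wild type livers, and knockout 1 was not. The log2 difference was -0.38 ± 0.16 (SE; 95% interval -0.74 to -0.01; limma adjusted p = 0.215). The probe sets 1416981_at and 1416982_at differed by -0.04 ± 0.22 and 0.02 ± 0.195 (SE; limma adjusted p = 0.939 and 0.961), and both changed sign under other scaling, weighting, blocking or with a liver left out. Probe set 1456529_at, also named for Foxo1, lay between 7.4 and 61.3, under the filter. No direction is therefore given for Foxo1.

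**Figure D4:**
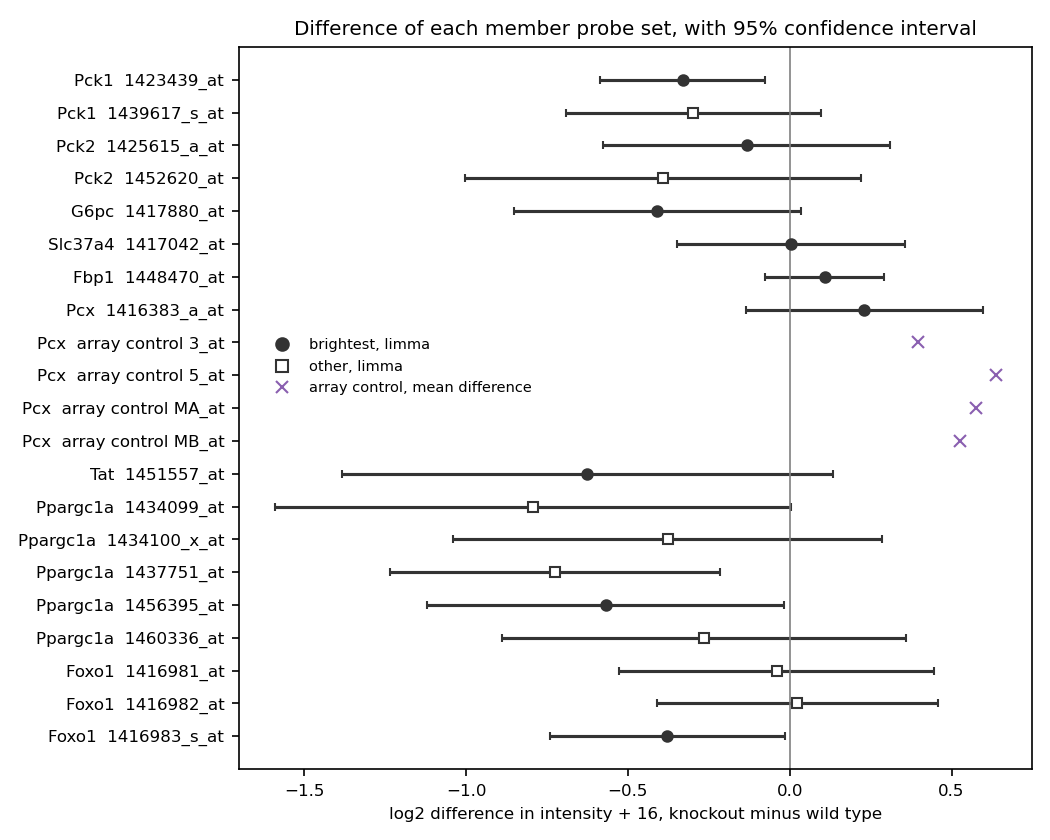
Log2 difference in intensity + 16, knockout minus wild type, for each member probe set above the filter, with its 95% confidence interval from limma; crosses are the 4 Pcx array controls, shown as mean differences without an interval. The intervals of 1423439_at (Pck1), 1437751_at and 1456395_at (Ppargc1a) and 1416983_s_at (Foxo1) lie below 0, and 0 of the 17 adjusted p values are under 0.05.

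The livers did not take the extremes evenly. Over the 17 tested member probe sets, wild type 3 was the highest array in 10, and knockout 2 the lowest in 7 and knockout 1 in 4. Probe sets of the same gene share their RNA and are not independent. The summed intensity of the brightest probe sets of the 9 members ran from 106564 to 119061 in wild type and from 96520.1 to 108078 in knockout livers, so the ranges overlapped.

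For each member, the gene with the most similar pattern over the 7 arrays was found among 11172 others by Pearson r on log2 values, as a description of these arrays. For Pck1 it was Tra2a (r = 0.984), for Pck2 Ddias (0.961), for G6pc Zfp871 (0.982) and for Slc37a4 Eid2 (0.994). For Fbp1 it was Hlcs (0.985), for Pcx Lrrk2 (0.984), for Tat Polr2c (0.992) and for Ppargc1a Zfp963 (0.986). For Foxo1 it was Fibin (0.98), which fell by 1.84 on the log2 scale (limma adjusted p = 0.0472). The other 8 of these genes did not pass the test. Each r is the highest of 11172 values over 7 arrays.

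The enzymes and carriers that gluconeogenesis shares with glycolysis and the malate and aspartate routes did include called genes. Of 17 tested, 3 rose and 1 fell, beside 4.18% called of all probe sets tested, with a median difference of 0.24. An unadjusted p under 0.05 was found for 10, beside 21.8% of all probe sets tested. Slc25a10, the mitochondrial dicarboxylate carrier, rose from 1595 ± 96.3 (SD, n = 3) to 2871 ± 378 (SD, n = 4), a log2 difference of 0.83 ± 0.14 (SE; limma adjusted p = 0.0145). Mdh1, the cytosolic malate dehydrogenase that yields oxaloacetate for Pck1, rose by 0.66 ± 0.12 (limma adjusted p = 0.0201), from 8949 ± 424 to 14279 ± 1972. The 3 other tested Mdh1 probe sets were also higher, and 0 of them passed. Got2, the mitochondrial aspartate aminotransferase, rose by 0.49 ± 0.11 (limma adjusted p = 0.0404). Knockout and wild type livers did not overlap for any of these 3 genes, by their brightest probe sets.

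Gpt2, an alanine aminotransferase that turns alanine into pyruvate, fell. It read 1517, 1592 and 2088 in wild type and 923, 572, 925 and 616 in knockout livers, a log2 difference of -1.19 ± 0.21 (SE; limma adjusted p = 0.0181). All 3 of its other tested probe sets were also lower, and 1 of them passed. Each of these 4 calls depends on the arrays used. Slc25a10 was lost without wild type 1, 2 or 3 (highest adjusted p 0.0648), Mdh1 also without knockout 4 (0.0918), Got2 without any array but knockout 3 (0.184), and Gpt2 without wild type 2, wild type 3 or knockout 4 (0.102).

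Of 7 tested paralogs of the members 0 passed the limma test, also at an unadjusted p under 0.05. Ppargc1b, the related coactivator, read 2997, 2003 and 2716 in wild type and 2857, 1171, 941 and 1913 in knockout livers (-0.69 ± 0.33; adjusted p = 0.264). The phosphate exchanger Slc37a3 differed by 0.33 ± 0.17 (adjusted p = 0.285), and Foxo4 by 0.16 ± 0.17 (adjusted p = 0.634), with a sign that changed without 1 array.

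Of 32 tested factors known to regulate gluconeogenic genes, 0 rose and 1 fell, beside 4.18% called of all probe sets tested, with a median of 0.0096. There were 8 at an unadjusted p under 0.05, beside 21.8% of all tested. Esrrg, an orphan nuclear receptor known to be induced by cAMP and to act on Pck1 and G6pc, read 539.5, 408 and 319 in wild type and 64.2, 24.2, 109.7 and 26.6 in knockout livers. Every knockout liver was below every wild type liver. It fell by 2.73 on the log2 scale (SE 0.39; limma adjusted p = 0.00779), and the call held with each array left out in turn (highest adjusted p 0.0379). Over all alternatives the difference ran from -3.13 with an offset of 1 to -2.05 with an offset of 64, so its size depends on the offset. Esrrg passed the filter, at an intensity of 102, only through the wild type group: its means were 422 ± 111 (SD, n = 3) and 56.2 ± 40.1 (SD, n = 4), and 3 of 4 knockout values lie under it. The probe sets kept by the filter were fixed once on all arrays. Runs with an array left out therefore do not test this selection and give the Esrrg call no separate support. Its other tested probe set had the same sign without passing.

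Few genes of the upstream hormone signals passed the test. Of 15 tested genes of glucagon and cAMP signalling 0 passed the limma test, and the median was 0.13. An unadjusted p under 0.05 was found for 5, beside 21.8% of all probe sets tested. The nearest to the threshold was Adra1b, an alpha adrenergic receptor, at 0.95 ± 0.31 (adjusted p = 0.11), which passed the filter only through the knockout group (wild type values 57 to 79.5). Next were Pde4d, a cAMP phosphodiesterase, at -0.54 ± 0.21 (limma adjusted p = 0.169), and Prkar2a, a regulatory subunit of protein kinase A, at 0.37 ± 0.14 (0.171). Of all probe sets tested, 4.18% were called and 21.8% had an unadjusted p under 0.05. Of 17 genes of insulin signalling 5 had such a p, 0 fell and 1 rose (median 0.04). That was Insr, the insulin receptor, from 1466 ± 277 (SD, n = 3) to 2443 ± 372 (SD, n = 4), a log2 difference of 0.74 ± 0.17 (SE; limma adjusted p = 0.0467). The call was lost without any array other than knockout 1 (highest adjusted p 0.141).

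Targets of FOXO1 and of PGC-1 alpha outside the pathway were counted separately. Of 18 tested FOXO1 targets 2 rose and 2 fell, with a median of -0.14 and 9 at an unadjusted p under 0.05. Over all probe sets tested, 4.18% were called and 21.8% had such a p. Mttp, which loads lipid onto lipoproteins, rose by 1.02 ± 0.16 (SE; limma adjusted p = 0.011), from 2355 ± 503 to 4759 ± 525, and the second was Insr. Gadd45a, a stress gene, fell by 1.26 on the log2 scale (SE 0.21; limma adjusted p = 0.0127), and Sesn1, a sestrin, by 1.19 (SE 0.26; limma adjusted p = 0.0385). Mttp was lost without wild type 3 (0.0695), Gadd45a without wild type 2 or 3 (0.073), and Sesn1 in 5 of 7 runs with 1 array left out (0.168). Of 14 PGC-1 alpha targets 0 passed the limma test, and the median was 0.12. An unadjusted p under 0.05 was found for 3, beside 21.8% of all probe sets tested. Acadm, a fatty acid oxidation enzyme, was nearest, at 0.48 ± 0.14 (adjusted p = 0.0794), followed by Gabpa at -0.44 ± 0.15 (0.123) and Ndufs1 at 0.36 ± 0.14 (0.168).

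Glucocorticoid targets had the lowest median of the pathway lists, -0.51, beside -0.0009 over all genes. Of 17 tested 0 rose and 3 fell, beside 4.18% called of all probe sets tested, and 14 had a negative difference. An unadjusted p under 0.05 was found for 10, beside 21.8% of all probe sets tested. Sgk1, a kinase of salt handling, read 9537, 7462 and 12604 in wild type and 5893, 2389, 3598 and 4992 in knockout livers, with no overlap (-1.27 ± 0.29; limma adjusted p = 0.0404). The transcription factor Zbtb16 fell by 1.04 on the log2 scale (SE 0.24; limma adjusted p = 0.0402), from 4069 ± 591 to 2031 ± 668, and the last was Gadd45a. Sgk1 and Zbtb16 were lost without any array other than knockout 1 (highest adjusted p 0.173 and 0.167). Tat, itself a glucocorticoid target, was lowest in knockout 2, as were Sgk1 and Zbtb16, whereas Gadd45a was lowest in knockout 3 (639) and, among knockout livers, highest in knockout 2 (1239). Knockout 2 was also the lowest liver for Fkbp5, Tsc22d3, Per1, Dusp1, Mt1, Mt2, Cdkn1a, Errfi1, Ddit4 and Klf9. Other livers were lowest for Lcn2, Angptl4, Tdo2 and Hif3a. The list median without knockout 2 was not computed, so the part of this 1 liver in it was not tested.

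Of 22 enzymes of amino acid breakdown and the urea cycle that are induced around birth, 2 rose and 0 fell. Their median was 0.04, and 9 had an unadjusted p under 0.05. Over all probe sets tested, 4.18% were called and 21.8% had such a p. Aldh4a1, of proline breakdown, rose from 1163 ± 51.1 to 2203 ± 536 (0.89 ± 0.18; limma adjusted p = 0.0278). Gstz1, a later enzyme of the tyrosine route that Tat opens, rose from 2575 ± 256 to 4558 ± 511 (0.82 ± 0.14; limma adjusted p = 0.014). Aldh4a1 was lost in 5 of 7 runs with 1 array left out (0.129) and Gstz1 without wild type 1 or 3 (0.0665).

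The opposing side of glucose metabolism held the gene with the smallest adjusted p of all these lists, Mlxipl. Of 18 tested genes of glycolysis and its control 2 rose and 1 fell, with a median of -0.28 and 6 at an unadjusted p under 0.05. Over all probe sets tested, 4.18% were called and 21.8% had such a p. Mlxipl encodes the glucose-responsive factor ChREBP and read 541, 436 and 466 in wild type and 1107, 1414.5, 1935 and 1485 in knockout livers. Every knockout liver was above every wild type liver. Mlxipl rose by 1.57 ± 0.19 on the log2 scale (SE; limma adjusted p = 0.00401), and it passed with each array left out (highest adjusted p 0.0307).

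Slc2a2, the hepatocyte glucose transporter through which glucose leaves, rose from 3806 ± 309.7 (SD, n = 3) to 7089 ± 1828 (SD, n = 4), by 0.86 ± 0.19 (SE; limma adjusted p = 0.0357). Slc2a1, a glucose transporter that red cells and their precursors also carry, fell from 5182 ± 1039 to 2614 ± 710.02 (-1.01 ± 0.24; limma adjusted p = 0.0449). The 2 other tested Slc2a1 probe sets were also lower, and 0 of them passed. Slc2a2 and Slc2a1 were both lost in 5 of 7 runs with 1 array left out (highest adjusted p 0.121 and 0.144). Pklr, the liver pyruvate kinase and a known ChREBP target chosen after its values were seen, differed by -0.97 ± 0.46 (SE; limma adjusted p = 0.251). It read 2186, 1977 and 1601 in wild type and 405, 1610, 1942 and 669.5 in knockout livers. The groups overlapped, with knockout 2 and 3 within the wild type range.

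**Figure D5:**
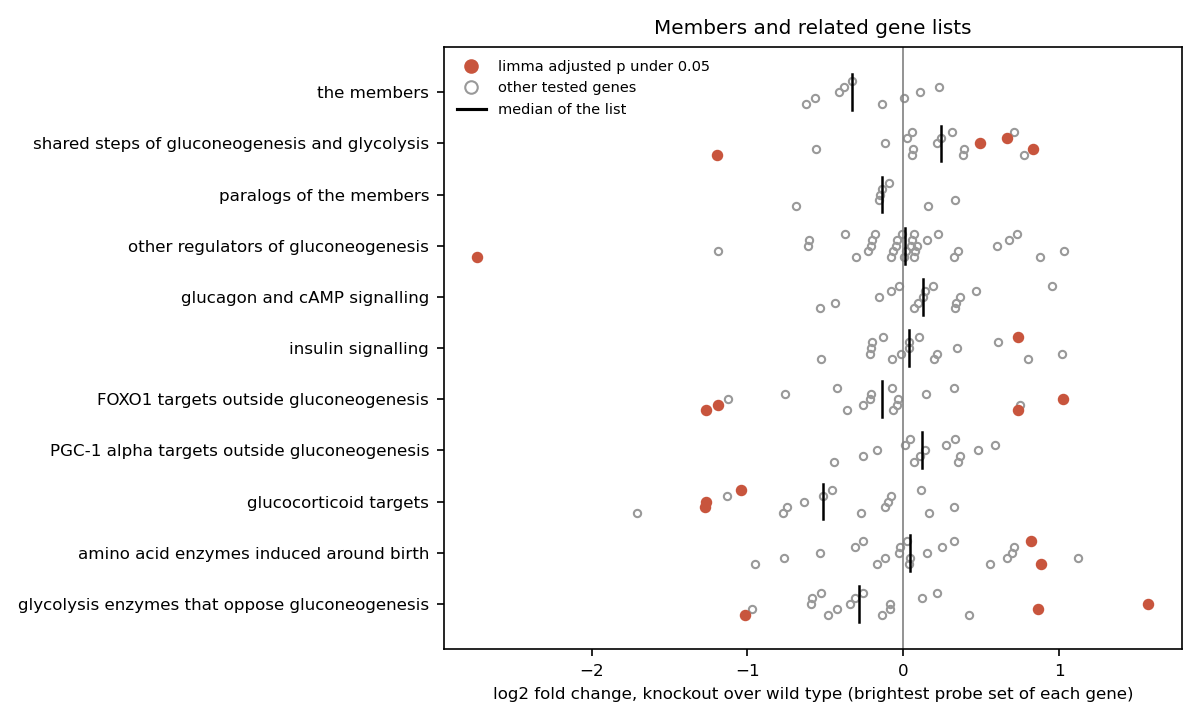
Log2 fold change, knockout over wild type, of the brightest probe set of each tested gene of the members and of 10 related lists; filled points have a limma adjusted p under 0.05 and bars mark the median of a list. The members have no filled point and a median of -0.33, Mlxipl is the filled point farthest to the right at 1.57 and Esrrg the one farthest to the left at -2.73. Esrrg passed the filter only through the wild type group.

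Markers of other cells that a newborn liver or an attached tissue could hold were read beside these results. Newborn liver still makes blood, and all 10 tested erythroid markers were lower in the knockout. Of them, 7 had an unadjusted p under 0.05, beside 21.8% of all probe sets tested, and 3 were past the adjusted threshold, beside 4.18%. These were the membrane proteins Slc4a1 (-0.39 ± 0.09; limma adjusted p = 0.0396) and Rhag (-0.49 ± 0.11; 0.0448) and the ubiquitin ligase Trim10 (-0.68 ± 0.16; 0.0467). Each was lost in at least 5 of 7 runs with 1 array left out (highest adjusted p 0.186, 0.182 and 0.192). Summed erythroid intensity ran from 85259.8 to 97725 in wild type and from 69906 to 76920.4 in knockout livers, with no overlap. Its part in the lower Pck1, Ppargc1a and Slc2a1 values, or in the higher ones of Mdh1 and Mlxipl, was not tested.

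Kidney cortex, the other gluconeogenic organ, was not seen: all 6 of its markers were under the filter, summing to between 251 and 361 in wild type and between 192 and 315.5 in knockout livers. Brown fat also expresses Ppargc1a and Pck1, and the list holds general fat cell markers. Of 4 measured, 3 were under the filter, with Adipoq at 18.2 ± 3.42 (SD, n = 3) and 21.2 ± 14.8 (SD, n = 4), Lep at 12.8 and 9.9 and Retn at 28.1 and 27.4 in wild type and knockout means. Fabp4, which macrophages and endothelium also express, differed by -0.81 ± 0.21 (limma adjusted p = 0.0634) on its brightest probe set. Its 3 other tested probe sets were also lower, and 1 of them passed. Fabp4 set the summed fat marker range of 7079.6 to 11463 in wild type and 4109 to 7058 in knockout livers. Its part in the Ppargc1a values was not tested.

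Of 8 fetal liver, 9 white cell, 11 macrophage, 9 endothelial, 3 bile duct and 10 stellate cell and fibroblast markers tested, 0 passed the limma test, with medians of 0.02, -0.0964, -0.12, -0.17, -0.05 and 0.13. At an unadjusted p under 0.05 there were 2, 2, 1, 4, 0 and 0, respectively, beside 21.8% of all probe sets tested. Among the hepatocyte markers, Cebpa, a factor that also acts on gluconeogenic promoters, differed by 0.73 ± 0.27 (limma adjusted p = 0.149), Apob by 0.53 ± 0.19 (0.141) and Ahsg by 0.12 ± 0.11 (0.576).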

How the data were processed

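The submitters made the deposited linear intensities with GCOS, per the submitters' processing notes, without a stated version. Their way of summarising probes is not given in the sources used. Leaving out the lowest and highest 2% of probe sets, every array's mean was 500.003, so the arrays had been scaled to a common target, which hides a change in total RNA. RNA came from each liver separately, per the labels' protocols.

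From these, log2(intensity + 16) was taken without further scaling. Of 45101 probe sets, 64 controls were set aside, and those with a mean intensity over 102.271, the median, were tested (22518) with limma 3.58.1 (lmFit, eBayes with a trend) in R 4.3.3. Errors of differences are limma's standard errors and those of intensities are SDs. The number of arrays limits the precision. Names come from the platform annotation, with 1 symbol for 34958 probe sets, several for 932 (not used) and none for 9211. The 21 gene lists hold 302 genes, of which 249 were tested; the brightest probe set, by mean intensity, stands for a gene.

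The text names every member probe set, and from each list up to 4 called genes of largest change per direction, or up to 3 of smallest p where none is called. Exact permutation tests over samples used all 35 arrangements of 3 and 4 arrays. Permutation tests were computed by direct enumeration, and plots used matplotlib 3.10.9. The members and lists were chosen with earlier results of these data known. The steps were tested on simulated data, where recovery was required only for changes far larger than the member differences. That check does not speak to differences of the members' size. Alternatives covered the offset, scaling, filter, variance model, array weights, threshold, each array left out, a replicate block and the choice of probe sets. Promoter sequences and starts are RefSeq's, assembly GRCm38.p6, and all 9 measured members matched.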

Additional observations from a re-analysis of the deposited data

Results flagged for a closer look

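Among 75 sets of 4 knockout values examined, of the members, the other named genes and both within-array differences, 2 had a value far from the other 3 (a gap to the nearest value, over the range, above Dixon's critical value, which chance gives in about 1 in 20 sets). Both were in knockout 3. The regular Pcx probe set, 1416383_a_at, read 8628.3 there, beside 12849.5 to 13688.6 in the other knockout livers, with a gap of 0.863 of the range. Aldh4a1 (1452375_at) read 3004.1 there, beside 1881.3 to 2001.2, with a gap of 0.868 of the range. This number of such values is no more than chance gives.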

How the results depend on the processing

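Over 305 alternatives of the member probe sets, 290 kept the direction and the side of the threshold, 2 newly passed it and 13 changed sign. Among other named genes, 705 of 844 kept both, 118 no longer passed, 14 newly passed and 7 changed sign. The number of member probe sets called was 0 under all alternatives run, except 2 with array weights. Over all probe sets, 941 calls became 473 without the filter, 570 with eBayes without a trend, 2442 with array weights, 2041 at an adjusted p under 0.1, and 141 to 995 with 1 array left out.

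Replicate numbers did not pair the samples: deviations of same-numbered arrays correlated at 0.0838, -0.0562 and 0.0478. With the number as a replicate block, 322 probe sets and 0 member probe sets passed, and not every array correlated best with its own number.

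Foxo1 1416981_at turned to 0.0198 with equal medians and 0.0694 with array weights, and Foxo1 1416982_at to -0.0508 with the replicate block. The bile duct marker Krt7 1423952_a_at went from -0.05 to 0.0151 with equal medians, 0.0172 with quantile normalization and 0.13 with the block. Log2 Pck1 minus log2 Pck2 turned to 0.0917 with the mean of all probe sets, which takes in a Pck1 probe set under the filter. It ran from -0.37 to -0.01 with 1 array left out, and log2 G6pc minus log2 Slc37a4 from -0.63 to -0.15. With 1 array left out, differences ran from -0.35 to 0.0688 for Pck2 1425615_a_at, -0.12 to 0.12 for Slc37a4, -0.63 to 0.0495 for Ppargc1a 1460336_at, -0.20 to 0.14 for Foxo1 1416981_at, -0.0877 to 0.15 for Foxo1 1416982_at, -0.0246 to 0.28 for Foxo4 1456753_at and -0.30 to 0.13 for Krt7. The cause was not tested. Signal over background limits the probe sets under the filter.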
